A study of Mus musculus with 35 samples.

Results

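The genes described here encode subunits of the phagocyte NADPH oxidase, also called NOX2. They are Cybb, Cyba, Ncf1, Ncf4 and Rac2, 5 genes of the 45706 in the deposited tables. They were chosen by name as parts of 1 enzyme complex, and each was read by its Ensembl identifier in all 35 libraries. Every one of the 5 passed the low-count filter of the test, which kept 13501 genes.

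The oxidase passes electrons from NADPH across a membrane to oxygen and makes superoxide, which phagocytes use against microbes and as a signal. Its catalytic core is a membrane pair, gp91phox (the product of Cybb) and p22phox (Cyba). On activation, cytosolic subunits that include p47phox (Ncf1) and p40phox (Ncf4) move to that core together with the small GTPase Rac2, and the complex switches on. Microglia, the resident macrophages of the central nervous system, carry this enzyme, and neutrophils and monocytes carry it at high levels.

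The libraries, labelled as microglia, came from CD11b and CD45 stained cells, gated as live and sorted from whole spinal cord after a Percoll gradient. The rNLS8 mouse carries NEFH-tTA, a transactivator driven by a neurofilament promoter and thus by neurons, and tetO-hTDP43, a human TDP-43 gene that doxycycline in the diet keeps off. All mice were of the mixed C57BL/6J X C3HeJ F1 strain and ate doxycycline until 8 to 12 weeks of age, wild-type (WT) littermates included. Early disease was rNLS8 mice 2 weeks off doxycycline (7 libraries), and Late disease was rNLS8 mice 6 weeks off (7 libraries). Recovery was rNLS8 mice 6 weeks off and then 1 week back on (7 libraries). The 14 Control libraries came from 3 WT mice 6 weeks off and 1 week on, 4 WT mice 2 weeks off, 1 WT mouse 6 weeks off and 6 rNLS8 mice that stayed on doxycycline. Each label opens with a 4-digit code, and its meaning is not given. All Recovery libraries have the code 0803, which no other group has, so that code and Recovery cannot be told apart. Code 0810 holds 9 of the controls and nothing else.

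Total counts per library ran from 13916292 to 20412352. The sorted cells carried the 12 homeostatic microglia markers, Csf1r and P2ry12 among them, at a summed 49599 to 94277 CPM (counts in every 1000000 of the library). Markers of T and NK cells summed to at most 1.85 CPM and those of neurons to at most 4.38 CPM. Other lists reached higher sums. Astrocyte markers, led by Slc1a3, reached 2728 CPM and B cell markers, led by Ighm, 521 CPM. Oligodendrocyte markers reached 243 CPM, erythroid markers 136 CPM and endothelial markers 38.6 CPM. Neutrophil and monocyte markers varied widely and are given beside the results they move with. Fewer cells of a type and less RNA per cell cannot be told apart in such pooled cells. The 9 controls of code 0810 had 18.3% ± 5.74 (SD) of their TPM (transcripts in every 1000000, after scaling for length) outside the deposited table, against 4.99% ± 1.99 in the other 26 libraries. Leaving out the marker Csf3r, Control 6 and Recovery 3 had the highest neutrophil sums of their groups, the latter close to that of Recovery 9. With Csf3r, Control 13 (853 CPM) lay above Control 6 (843 CPM). Late disease 6 had the lowest microglia sum of all libraries. Each call below was also made without Control 6, Recovery 3 and Late disease 6. Nothing in the labels says that libraries pooled mice, and each is taken as 1 mouse.

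Per unit of transcript length, the membrane partner Cyba was the most abundant of the 5 in controls and the catalytic subunit Cybb the least. In TPM, Cyba stood at 1272 ± 92.4 (SD, n = 14) in controls and Ncf1 at 397 ± 65.9. Rac2 stood at 101 ± 15.1 TPM, Ncf4 at 91.6 ± 23.6 and Cybb at 6.16 ± 3.71. Control Rac2 (64.4 to 124 TPM) and Ncf4 (34.0 to 133 TPM) overlapped and were neighbours in that order, whereas the ranges of Cyba, Ncf1 and Cybb did not overlap those of any other member. Within the membrane pair, control libraries held 0.485 ± 0.283 TPM of Cybb for every 100 TPM of Cyba.

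In the annotation of the mm10 build, Cybb spans X:9435252-9487771 and Cyba 8:122424776-122432930, both on the minus strand. Ncf1 spans 5:134220053-134229625 on the minus strand. Ncf4 spans 15:78244801-78262580 on the plus strand and Rac2 15:78559167-78572783 on the minus strand. All 5 are protein-coding, with identifiers ENSMUSG00000015340 (Cybb), ENSMUSG00000006519 (Cyba), ENSMUSG00000015950 (Ncf1), ENSMUSG00000071715 (Ncf4) and ENSMUSG00000033220 (Rac2).

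The promoters of members with a RefSeq window are shown because the results turn on Cybb against its partners. RefSeq windows of the GRCm38.p6 build, 250 bases before to 50 after the start, matched 3 of the 5 members. The stretches printed run from 100 bases before to 30 after the start, all on the minus strand, at chrX:9469295-9469424 for Cybb, chr8:122432911-122433040 for Cyba and chr5:134229596-134229725 for Ncf1. Those of Cyba and Ncf1 span the start of the annotated gene. That of Cybb lies inside the annotated gene, which starts at X:9487771, so its positions count from the RefSeq start only. Capitals mark matches on either strand to an interferon-stimulated response element (ISRE: GAAA, any 2 bases, GAAA) or a composite site of an ETS factor and an IRF (GGAA, any 2 bases, GAAA).
Cybb: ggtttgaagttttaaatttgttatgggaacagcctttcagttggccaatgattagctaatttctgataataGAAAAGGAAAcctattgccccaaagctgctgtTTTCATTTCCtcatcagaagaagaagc
Cyba: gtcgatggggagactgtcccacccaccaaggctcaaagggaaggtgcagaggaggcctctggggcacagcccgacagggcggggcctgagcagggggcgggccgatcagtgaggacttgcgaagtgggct
Ncf1: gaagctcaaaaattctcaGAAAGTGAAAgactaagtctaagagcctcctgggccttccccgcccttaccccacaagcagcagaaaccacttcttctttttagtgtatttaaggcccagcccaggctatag

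The Cybb window held 3 ISRE matches, at −29, −124 and −168 from the start, and 1 composite match at 4. The ISRE matches at −124 and −168 lie outside the stretch printed. Ncf1 held 1 ISRE match, at −82, and Cyba no match to either motif. Of 32851 windows of the same length, 3.44% held the ISRE letters and 2.72% the composite. The PU.1 site GAGGAAGT was in none of the 3 and in 3.20% of all windows. A match is a description of letters and not a site that was measured.

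Cybb was also the member that moved. In CPM scaled by TMM factors, control libraries ran from 1.58 to 33.8 with a median of 19.1, and Early disease libraries from 9.65 to 69.5 with a median of 30.4. Late disease libraries ran from 41.1 to 118 CPM with a median of 68.5, and Recovery libraries from 43.9 to 159 CPM with a median of 62.0. Every Late disease and every Recovery library lay above every control, while 3 of 7 Early disease libraries did and the other 4 fell within the control range. The counts behind these values were 23 in the lowest control (Control 9) and 3013 in the highest Recovery library (Recovery 3).

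**Figure D1:**
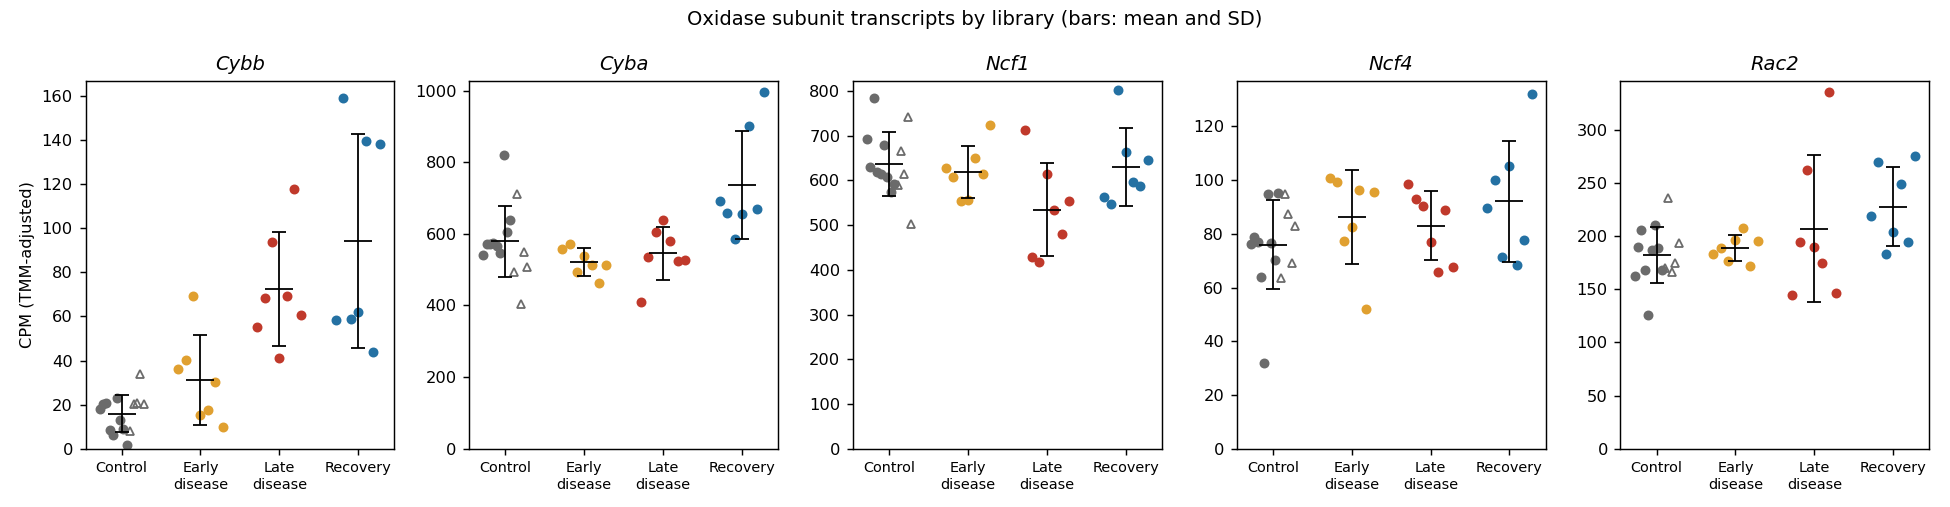
Level of each oxidase subunit transcript in each of the 35 libraries, in TMM-adjusted CPM on linear axes that start at 0. Points are libraries, grey circles are controls of label code 0810 and open triangles the other 5 controls, and the bars give the group mean and SD. Late disease and Recovery libraries of Cybb all sit above the highest control at 33.8 CPM, while every group of each other member overlaps the controls.

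The question of the first comparison is what changes in sorted cells 2 weeks after the transgene is released. None of the 5 members passed the threshold (an adjusted p under 0.05) in Early disease against Control, where 1 gene of all tested did (0.00741%). Cybb was the 1 member under an unadjusted p of 0.05, and DESeq2 also called 0 of 5. Cybb averaged 31.2 ± 20.3 CPM in Early disease against 16.0 ± 8.56 in controls, a log2 difference of 0.95 ± 0.35 (SE; edgeR quasi-likelihood adjusted p = 0.249). This difference passed the threshold on log2(TPM + 1) with limma (1.05, adjusted p = 0.0422), a scale on which the median of all genes tested stood 0.22 above Control in Early disease and 0.18 in Late disease. Against the 6 rNLS8 controls alone it was 1.58 (edgeR adjusted p = 0.0436). Those 2 fits called 10.5% and 5.48% of all genes tested. Over 15 other settings the Cybb difference ran from 0.545 to 1.58, and in 12 of them it was not called. The other 4 members differed by −0.15 for Cyba, −0.04 for Ncf1, 0.19 for Ncf4 and 0.05 for Rac2 (log2, edgeR), with 95% intervals that all held 0.

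Late disease, 6 weeks after release, is compared with the same 14 controls. Cybb was higher, at 72.3 ± 25.8 CPM against 16.0 ± 8.56, a log2 difference of 2.24 ± 0.35 with a 95% interval of 1.55 to 2.92 (edgeR adjusted p = 7.58e-05). The direction held in 7 of 7 libraries. Ncf1, the p47phox organizer, was the other member called and was lower, at 535 ± 105 CPM against 636 ± 71.8. Its log2 difference was −0.26 ± 0.09 (edgeR adjusted p = 0.0481), and its values overlapped, with 3 of 7 Late disease libraries below every control and 1 above the control median. The 2 members called of 5 stand beside 15.4% of all genes tested, 9.01% higher and 6.39% lower.

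The Ncf1 call was not stable. It ended in 22 of the 35 fits that each left out 1 library (adjusted p 0.0109 to 0.161) and held in 4 of 15 other settings. Ncf1 overlaps Gtf2ird2 on the other strand, and the library kits named do not mark strand, so reads of the 2 genes in the shared stretch cannot be told apart. The Cybb call held in all 35 such fits and in 14 of 15 settings. With the label code as a term of the model, and Recovery left out, Cybb kept its size at 2.04 ± 0.61 but not its call (edgeR adjusted p = 0.244), in a fit that called 0.0303% of all genes.

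The remaining members differed little in Late disease. Cyba ran from 409 to 638 CPM against 404 to 819 in controls (log2 −0.08 ± 0.10, edgeR adjusted p = 0.663). Ncf4 ran from 65.9 to 98.3 CPM against 32.0 to 95.2 (0.12 ± 0.15, adjusted p = 0.632). Rac2, the GTPase switch, ran from 145 to 336 CPM against 126 to 236 (0.18 ± 0.12, adjusted p = 0.341), with Late disease 6 and Late disease 3 above every control and the rest among them. The 95% intervals of these 3 differences were −0.28 to 0.12, −0.17 to 0.41 and −0.06 to 0.42. On log2(TPM + 1), with its shift of all genes, Cyba turned to 0.13 in Late disease and 0.11 in Early disease, and Rac2 passed the threshold in Late disease (limma 0.33, adjusted p = 0.0304). That Late disease fit called 21.4% of all genes tested, 19.9% higher and 1.49% lower.

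Within both label codes that hold the 2 groups, every Late disease library stood above every control in Cybb. Under code 1019, Late disease 1 stood at 55.3 CPM, above the Early disease libraries at 36.0 and 40.0 and the controls at 7.90 to 33.8. Under code 1102, Late disease libraries stood at 41.1, 68.5 and 93.9 CPM against 20.2 in the only control of that code. Early disease libraries of code 1102 were spread from 15.4 and 17.6 to 69.5 CPM, the last within the Late disease range. Code 1130 held no controls, and there Late disease libraries stood at 60.4, 69.1 and 118 CPM against 9.65 and 30.4 in Early disease. With only the 5 controls of codes 1019 and 1102, the Late disease difference of Cybb was 1.91 (edgeR adjusted p = 0.0286), where 1.41% of all genes were called.

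In Recovery, after 1 week back on doxycycline, Cybb was again well above Control. It averaged 94.2 ± 48.7 CPM, a log2 difference from Control of 2.57 ± 0.35 with a 95% interval of 1.89 to 3.25 (edgeR adjusted p = 1.01e-05), and it was higher in 7 of 7 libraries. The libraries formed separate clusters, with 4 between 43.9 and 62.0 CPM and 3 between 138 and 159 CPM. Cyba was the other member called, at 737 ± 151 CPM against 579 ± 98.4 (0.34 ± 0.10, edgeR adjusted p = 0.0478), with Recovery 7 at 901 CPM and Recovery 9 at 997 CPM above every control. The 2 of 5 members called, both higher, stand beside 3.98% of all genes tested, 2.87% higher and 1.10% lower.

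The Cybb call in Recovery held in all 13 other settings, from 2.25 to 3.19, and in all 35 fits that left out 1 library. The Cyba call held in 8 of 13 settings and ended in 25 of those 35 fits (adjusted p 0.0151 to 0.208). Rac2 ran from 183 to 275 CPM, every Recovery library above the control median, at a log2 difference of 0.33 ± 0.12 that missed the threshold (edgeR adjusted p = 0.128) and passed it on log2(TPM + 1) (limma adjusted p = 0.0245). That limma fit called 5.71% of all genes tested, 5.25% higher. Ncf4 (0.28 ± 0.15, adjusted p = 0.321) and Ncf1 (−0.02 ± 0.09, adjusted p = 0.962) did not pass. Cyba overlaps Gm20388 on the other strand, with the same limit on reads as for Ncf1.

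**Figure D2:**
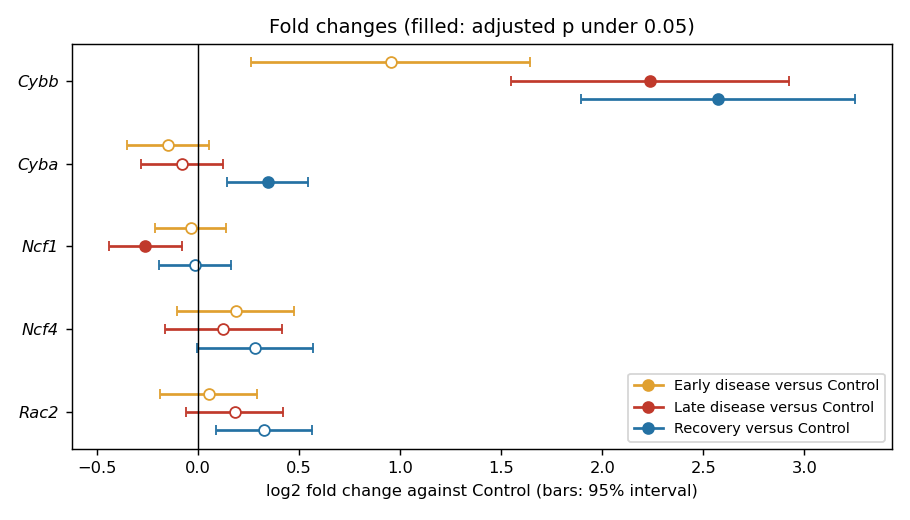
Log2 difference of each subunit transcript from Control in Early disease, Late disease and Recovery, from the edgeR fit to all 35 libraries, with approximate 95% intervals as bars; filled points have an adjusted p under 0.05. Cybb lies at 0.95, 2.24 and 2.57, and every other point lies between −0.26 and 0.34.

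The 3 comparisons above share their 14 controls. Between the disease groups themselves, Late disease against Early disease called none of the 5 members (0.741% of all genes called; 2 members under an unadjusted p of 0.05, and 0 called by DESeq2). Cybb stood 1.28 ± 0.43 higher there (edgeR adjusted p = 0.135) with a 95% interval of 0.45 to 2.12. Recovery against Late disease also called none (0.585% of all genes; 2 members under an unadjusted p of 0.05, and DESeq2 called Cyba), with Cybb at 0.34 ± 0.41 (adjusted p = 0.742), an interval of −0.48 to 1.15. Cyba was 0.42 ± 0.12 higher in Recovery than in Late disease (edgeR adjusted p = 0.0816), and 6 of 7 Recovery libraries lay above every Late disease library.

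Recovery against Early disease called 1 of 5 members, Cyba, where 0.793% of all genes were called. Cyba ran from 586 to 997 CPM in Recovery and from 462 to 571 CPM in Early disease, with no overlap (0.49 ± 0.12, edgeR adjusted p = 0.0342). That call ended in 9 of the 35 fits without 1 library, those without Recovery 2, 3, 7 or 9 or Early disease 4, 5, 6, 7 or 8 (adjusted p up to 0.155). Cybb was 1.62 ± 0.42 higher (edgeR adjusted p = 0.0564), and 6 of those fits, among them the one without Early disease 4 (adjusted p = 0.0236), put it past the threshold.

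The unequal change of the membrane pair showed inside each library, where scaling between libraries plays no part. Late disease held 2.24 ± 0.794 TPM of Cybb for every 100 TPM of Cyba and Recovery 2.07 ± 0.938, against 0.485 ± 0.283 in controls. Early disease held 1.01 ± 0.663. No Late disease library (lowest 1.06) or Recovery library (lowest 1.14) overlapped the controls (highest 0.982), whereas Early disease (0.309 to 2.34) did. This ratio was examined after the levels had been seen.

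The ratio test gave the following over 12 comparisons of Cybb with a partner. Relative to Cyba, the log2 ratio rose by 2.47 in Late disease and 2.33 in Recovery, each at the smallest p the libraries allow (1.72e-05, exact two-sided permutation test, 2.58e-05 adjusted over the 12). Relative to Ncf1, Cybb stood at 8.60 ± 4.06 TPM per 100 in Late disease and 9.15 ± 5.14 in Recovery against 1.50 ± 0.791, and the partners Ncf4 and Rac2 gave the same smallest p in both groups. The ratios all share Cybb, whose level in both groups already lay above every control, so the partners are not separate results. These permutations exchange libraries across label codes, and Recovery and 9 controls have codes of their own. Within code 1019 the ratio to Cyba was 2.35 in Late disease 1 against 0.273 to 0.982 in 4 controls, and within code 1102 it was 1.06 to 2.59 in 3 Late disease libraries against 0.807 in 1 control. In Early disease the ratio to Cyba was 1.16 higher on the log2 scale (exact permutation p = 0.0255, adjusted 0.0341), and that to Ncf4 was 0.80 higher (p = 0.1, adjusted 0.1).

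**Figure D3:**
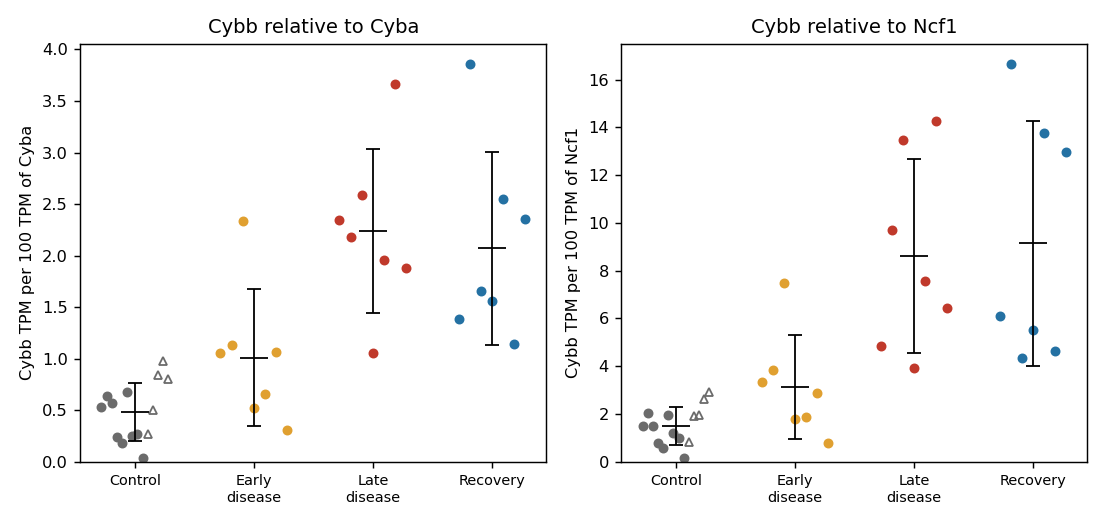
TPM of Cybb for every 100 TPM of Cyba (left) and of Ncf1 (right) in each library, by group on linear axes that start at 0, with mean and SD; grey circles are controls of label code 0810 and open triangles the other controls. Late disease and Recovery libraries start at 1.06 and 1.14 in the left panel, above the highest control at 0.982.

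Markers of other myeloid cells moved with Cybb in part of the libraries. Leaving out Csf3r, which was abundant in every library, the 12 other neutrophil markers summed to 217 to 7119 CPM in Recovery, 0.420 to 318 in Late disease (median 1.71), 0.369 to 327 in Early disease (median 0.711) and 0.109 to 329 in controls (median 0.815). Mpo was at 0 in every library outside Recovery, and Elane also in every Late disease library. The most abundant of the list after Csf3r were Ngp and S100a8. Of the 11 neutrophil markers tested, 10 were called higher in Recovery, 1 in Late disease and 0 in Early disease (edgeR, none under an unadjusted p of 0.05). Of all genes tested, 2.87% were called higher in Recovery and 9.01% in Late disease.

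Cybb is given here by the sum of those 12 markers, with libraries split at a chosen level of 2 CPM. In the 4 Late disease libraries where the 12 markers summed to under 2 CPM, Cybb ran from 55.3 to 69.1 CPM, and in the 8 controls under the same level it ran from 6.30 to 20.6 CPM. In the other 3 Late disease libraries it ran from 41.1 to 118 CPM, and in the other 6 controls from 1.58 to 33.8 CPM. No Recovery library was under that level. Recovery 4 and Recovery 8, with the lowest sums at 217 and 233 CPM, had Cybb at 59.0 and 43.9 CPM. Recovery 5 and Recovery 2, with sums of 739 and 1688 CPM, had 62.0 and 58.2 CPM. Recovery 3, 7 and 9, with sums of 7119, 4333 and 6387 CPM, had 159, 139 and 138 CPM. The 3 Recovery libraries with the highest neutrophil sums were thus the 3 highest in Cybb. How much of the Cybb level came from such cells, in Late disease or in Recovery, was not tested.

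Monocyte markers, 11 genes led by Chil3, Fn1 and Ms4a4c, summed to 7.84 to 27.8 CPM in controls, 13.02 to 44.1 in Early disease, 34.7 to 190 in Late disease and 75.6 to 633 in Recovery. Late disease and Recovery libraries all lay above the controls in that sum, as they did for Cybb. The 4 Late disease libraries with neutrophil sums under 2 CPM had monocyte sums of 34.7 to 44.1 CPM. Of 10 monocyte markers tested, 3 were called higher in Late disease and 9 in Recovery, and of 8 border macrophage markers 1 in each. Of all genes tested, 9.01% were called higher in Late disease and 2.87% in Recovery. The 1 of 8 border macrophage markers in Late disease is near that share. The 12 homeostatic microglia markers summed to 66118 ± 10528 CPM in Late disease against 84240 ± 5238 in controls. In Late disease 6 of the 12 were called lower, beside 6.39% of all genes. The part of monocytes in the Cybb result was not tested.

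**Figure D4:**
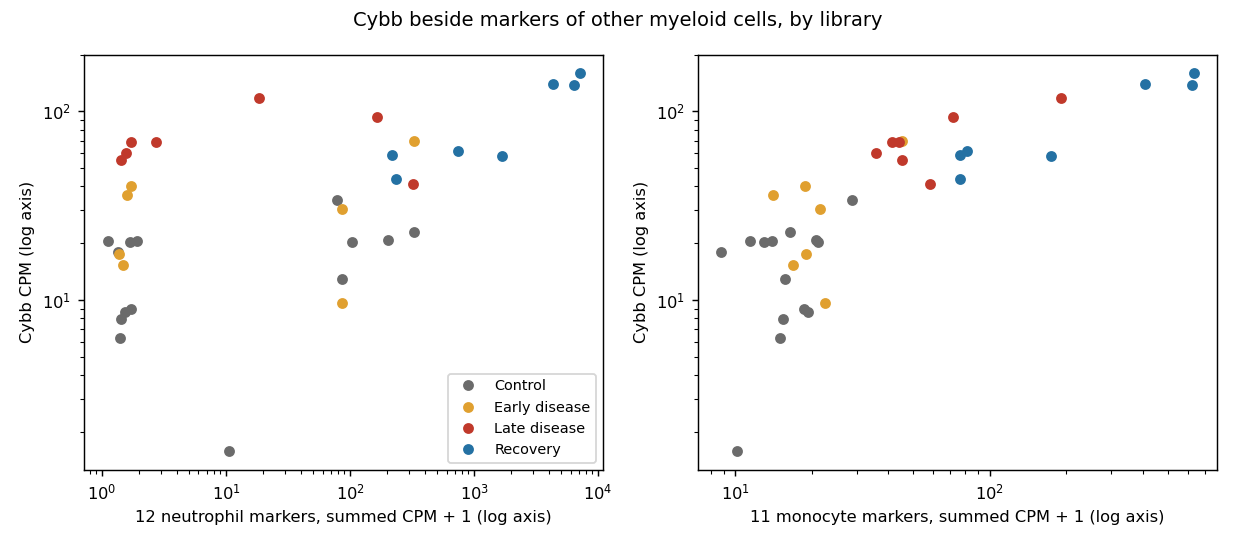
CPM of Cybb in each of the 35 libraries against the summed CPM plus 1 of 12 neutrophil markers (left) and of 11 monocyte markers (right), all on log axes, coloured by group. In the left panel 4 Late disease libraries with sums under 2 CPM lie at 55.3 to 69.1 CPM of Cybb, above the controls with equally low sums, and the 3 highest Recovery libraries have the highest sums.

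Within Recovery, 10 relations between a member and a marker mean were computed over the 7 libraries. Rac2, which is restricted to blood-lineage cells, followed both marker means on the log2 scale. With neutrophil markers its Pearson r was 0.93 (exact permutation p = 0.00238, adjusted 0.00992) and Spearman rho 0.93 (p = 0.00675, adjusted 0.0337), and r was 0.89 without the 2 libraries farthest from the median. With monocyte markers r was 0.97 (exact permutation p = 0.00198, adjusted 0.00992) and rho 0.96 (p = 0.00278, adjusted 0.0278), and r was 0.93 without 2 libraries.

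The other cytosolic members did not follow those means. Ncf1 had r of −0.54 and rho of −0.43 with neutrophil markers (exact permutation p = 0.236 and 0.354, adjusted 0.295 and 0.494) and r of −0.52 and rho of −0.32 with monocyte markers (p = 0.23 and 0.498, adjusted 0.295 and 0.498), with r of −0.66 and −0.53 without 2 libraries. Ncf4 had r of 0.46 and rho of 0.39 with neutrophil markers (exact permutation p = 0.288 and 0.396, adjusted 0.298 and 0.494), and r of 0.45 and rho of 0.36 with monocyte markers (p = 0.298 and 0.444, adjusted 0.298 and 0.494). Its r fell to 0.02 and turned to −0.31 without 2 libraries. The Recovery libraries fell into separate clusters for Cybb (4 and 3 libraries, as above) and for Cyba (5 at 586 to 691 CPM, and Recovery 7 and 9). Correlations over all 7 were computed for these members too but are not given, because they would join clusters of fewer than 6 libraries. The upper Cybb cluster held the 3 highest sums of both marker lists. For Cyba, Recovery 7 and 9 had monocyte sums of 407 and 621 CPM, and Recovery 3, with the highest at 633 CPM, was in the lower cluster at 659 CPM.

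The controls themselves differed in Cybb but not past the threshold. Under label code 0810 the 6 rNLS8 mice on doxycycline stood at 6.30, 8.66, 8.97, 12.9, 23.1 and 1.58 CPM and the 3 WT mice at 18.0, 20.4 and 20.6 CPM. Those WT mice had been 6 weeks off doxycycline and 1 week back on, so genotype and diet history cannot be told apart here. Only Control 6 of the rNLS8 mice lay above the WT values. The log2 difference was −0.99 ± 0.57 (edgeR adjusted p = 1.00), 0 of 5 members were called, and 0.00772% of 12958 genes were. Female and male mice were compared because Cybb is X-linked, and 0 of 5 members were called (0.0593% of all genes), with Cybb at 0.26 ± 0.27 in females (edgeR adjusted p = 1.00). The labels and the deposited design table give Controls 7 and 8 opposite sexes, and the X-linked Xist and Y-linked Ddx3y side with the table (Xist at 0 and 155 CPM, Ddx3y at 46.9 and 0). With the table's sexes Cybb was at 0.22 ± 0.27 (adjusted p = 0.970), and 0 members were called.

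Other parts and relatives of the oxidase were read from a list of 14 genes, of which 7 passed the low-count filter. In Late disease 2 of the 7 were lower and none higher, beside 6.39% and 9.01% of all genes. The count called was 0 to 4 in other settings. Cybc1, a chaperone of the membrane pair in the endoplasmic reticulum, was at 213 ± 33.5 CPM against 311 ± 42.4 in controls (log2 −0.55 ± 0.09, edgeR adjusted p = 1.24e-04). Rap1a, a GTPase found with the membrane pair, was at 133 ± 18.0 CPM against 171 ± 24.0 (−0.36 ± 0.09, adjusted p = 0.00745). Late disease Cybc1 (169 to 268 CPM) overlapped the controls (244 to 395 CPM) in its upper part, and the call of Cybc1 held in 14 of 15 settings, ending with the label code as a term (adjusted p = 0.301). The call of Rap1a held in 9 of 15 settings, and its difference was −0.14 on log2(TPM + 1) (limma adjusted p = 0.229) and −0.24 with the label code as a term (edgeR adjusted p = 0.628).

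Rac1, the ubiquitous relative of Rac2, differed by −0.22 ± 0.08 in Late disease (edgeR adjusted p = 0.0579). Hvcn1, the proton channel that balances oxidase charge, differed by 0.14 ± 0.08 in Late disease and 0.20 ± 0.08 in Recovery (adjusted p = 0.254 and 0.148). Noxo1 and Duoxa1 were tested at means of 1.88 and 5.63 CPM in controls and did not pass.

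Transcripts of the other oxidase enzymes were at or near 0. Nox3, Duoxa2 and Noxa1 had no count in any library, and Nox1, Nox4, Duox1 and Duox2 reached at most 0.826 CPM in any library. In Early disease and in Recovery 0 of the 7 tested genes were called, with 2 and 2 under an unadjusted p of 0.05. The median log2 difference of the 7 was −0.22 in Late disease, −0.16 in Early disease and −0.17 in Recovery, beside 0.02, −0.00 and −0.01 over all genes tested.

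Signalling proteins that activate the oxidase were read from a list of 31 genes, 30 of them tested. In Late disease 6 were higher and 3 lower (9.01% and 6.39% of all genes), in Recovery 1 higher and 1 lower (2.87% and 1.10%), and in Early disease none by edgeR (3 under an unadjusted p of 0.05). The 9 called in Late disease became 5 without Late disease 6, and 0 to 12 in other settings. Fgr, a Src-family kinase of myeloid cells, moved most, from 9.49 ± 6.25 CPM in controls to 33.3 ± 14.3 in Late disease (log2 1.93 ± 0.40, edgeR adjusted p = 0.0015) and 41.7 ± 23.0 in Recovery (2.12 ± 0.40, adjusted p = 9.54e-04). Its sister kinase Lyn was lower in Late disease, at 854 ± 133 CPM against 1055 ± 69.0 (−0.31 ± 0.07, adjusted p = 0.00269). The median difference of the 30 was 0.05 in Late disease and 0.01 in Recovery.

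Prkcd, a protein kinase C that phosphorylates the cytosolic subunits, was at 546 ± 118 CPM in Late disease against 387 ± 57.6 (0.49 ± 0.10, edgeR adjusted p = 0.00105). Mapk14, the p38 kinase that primes p47phox, was at 256 ± 23.1 CPM against 302 ± 24.2 (−0.25 ± 0.06, adjusted p = 0.00411). Prkca was lower in Recovery, at 19.3 ± 4.06 CPM against 29.3 ± 6.87 (−0.60 ± 0.14, adjusted p = 0.0108). Prkcb, Pik3cd, Dock2 and Akt1 were the other genes called higher in Late disease. With the label code as a term none of the Late disease calls of Fgr, Lyn, Prkcd and Mapk14 held (adjusted p = 0.244 to 0.485), and Fgr was then at 2.09. Over 15 settings the call held in 13 for Fgr, 12 for Prkcd and 10 each for Lyn and Mapk14, whose differences shrank to −0.13 and −0.0370 on log2(TPM + 1). In Recovery the call of Fgr held in 12 of 13 settings and that of Prkca in 11 (adjusted p up to 0.0900 and 0.0886).

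Transcription factors known to drive the subunit genes were not called by the main test. Of 7 listed, 6 were tested and 0 passed in Early disease, Late disease or Recovery by edgeR, with 0, 0 and 1 under an unadjusted p of 0.05. Of all genes tested, 0.00741%, 15.4% and 3.98% were called. With so few genes, 0 of 6 is near those shares. In other settings the count called was up to 3 in Early disease, 2 in Late disease and 1 in Recovery. Spi1, which encodes PU.1, was at 364 ± 60.4 CPM in Late disease and 363 ± 43.2 in controls. Irf8 was at 762 ± 147 CPM in Late disease, 771 ± 98.3 in Recovery and 753 ± 49.5 in controls. Irf1 was at 97.6 ± 18.6 CPM in Late disease, 79.0 ± 16.2 in Recovery and 86.5 ± 13.6 in controls.

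The genes whose log2 CPM most resembled that of each member over the 35 libraries were taken from 8339 genes of at least 10 CPM on average. For Cybb they were Lgals3 (r = 0.82), Cd74 (0.81) and Cd52 (0.79). Ranking over all groups favours genes that share the group differences of Cybb. All 3 were higher in Late disease (log2 1.97, 1.96 and 1.06) and Recovery (2.69, 2.50 and 1.18). With group means removed, Il1rn (0.67) and Rabgef1 (0.63) came first. Cyba was most like Dad1, Uqcr11 and Tmbim4 (0.86 each), Rac2 most like Arf6 (0.83), Prdx5 (0.82) and Rpl28 (0.81), Ncf1 most like Mras (0.75) and Ncf4 most like Slirp (0.71).

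The members were also compared with each other. The genes named above were picked as the highest of 8339, so their r cannot be set against that of fixed pairs. The r of typical gene pairs is not given. Among the pairs, Ncf4 with Rac2 had r of 0.54, Cyba with Rac2 0.53 and Cybb with Rac2 0.52. Cybb with Cyba, the membrane pair, had 0.23, and Cybb with Ncf1 −0.26. These correlations are descriptions over 35 libraries that share group differences and sequencing depth.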

How the data were processed

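RNA of sorted spinal cord cells was amplified with SMART-Seq and made into libraries with NexteraXT, per the labels' protocols. The submitters' processing notes name RSEM, DESeq2 and the mm10 build, and give no versions or settings. The authors deposited expected counts per gene, TPM per gene without spike-ins, and a design table with counts of alignments and the sex of each mouse. Expected counts were rounded to whole numbers, and depth was 13916292 to 20412352 per library.

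The test was edgeR 4.0.16 (R 4.3.3): TMM factors, filterByExpr, a quasi-likelihood fit of 4 groups and sex to all 35 libraries, and Benjamini-Hochberg adjustment over 13501 genes, called under 0.05. The SE is the log2 difference divided by the square root of F, and 95% intervals are normal approximations. The comparison among controls of code 0810 was fitted on those 9 libraries. TPM was tested with limma 3.58.1 after adding 1 or 0.1, and counts also with DESeq2 1.42.0. The scripts were tested on simulated data. Replicates within a group differed by more than sampling noise in all 154 pairs.

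Symbols matched 45143 of 45706 identifiers. The sex in the labels, used in the test, differs from the design table for 2 controls, whose sex-linked transcripts side with the table, and both were tried. Ratios were compared by an exact permutation test. All 5 members are named. In addition the counted genes of the list of other subunits, and the 4 called genes with the smallest adjusted p in each other pathway list and comparison, are given with values, except that some list members are not reported here by name. The 3 genes most like a member were ranked by Pearson r. The members and lists were chosen with earlier results of these data known. Promoters come from RefSeq.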

Additional observations from a re-analysis of the deposited data

Results flagged for a closer look

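Libraries far from the rest of their group were looked for in 25 combinations of a member and a group of 4 to 10 libraries, where chance marks about 1 in 20. Ncf4, the p40phox gene, stood at 52.1 CPM in Early disease 7, and the other 6 Early disease libraries ran from 77.3 to 101 CPM. Ncf4 also stood at 32.0 CPM in Control 5, below the other 5 rNLS8 mice on doxycycline at 64.0 to 95.2 CPM. Rac2 stood at 236 CPM in Control 11, above the other 3 WT mice 2 weeks off doxycycline at 166 to 175 CPM.

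Cyba differed between Recovery and Early disease, which are both compared with the same controls, by 0.49 on the log2 scale (edgeR adjusted p = 0.0342). Its log2 difference from Control was 0.34 in Recovery and −0.15 in Early disease, the latter not past the threshold.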

How the results depend on the processing

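The calls of Cybb in Late disease and Recovery held in all 35 fits without 1 library, and in 14 of 15 and 13 of 13 other settings; the counts of members called moved as follows, mostly through Ncf1 and Cyba near the threshold. In Late disease (2 called) the count was 1 with no low-count filter, with no sex term, with rNLS8, WT or shared-code controls only, with only the groups compared, without Control 6, Recovery 3 and Late disease 6 or with the share of TPM that the table lacks as a term, and 0 with the label code as a term. The main fit called 15.4% of all genes there. It was 6.86% with no filter, 16.3% with no sex term, and 17.1%, 7.58% and 1.41% with rNLS8, WT and shared-code controls. Only the groups compared gave 7.47%, leaving out those 3 libraries 8.45% and the label code 0.0303%. In Recovery (2 called) the count was 1 with no filter, the replicate block, rNLS8 controls only, only the groups compared or without those 3 libraries, and 3 with limma at either TPM offset. The shares of all genes in those settings were, in that order, 2.66%, 6.76%, 5.62%, 3.46% and 3.87%. With limma they were 5.71% and 5.56%, beside 3.98% in the main fit. In Early disease (0 called) the count was 1 with limma at either TPM offset or rNLS8 controls only. Those fits called 10.5%, 10.3% and 5.48% of all genes, against 0.00741% in the main fit. Recovery against Late disease (0) gave 1 with DESeq2, which called 2.55% of all genes against 0.585% in the main fit. Recovery against Early disease (1) gave 2 with DESeq2, RLE factors, no filter, only the groups compared or the TPM share, and 0 with the replicate block. Of all genes, DESeq2 called 1.64%, RLE factors 0.933%, no filter 0.634% and only the groups compared 4.83%. The replicate block called 0.296% and the main fit 0.793%. Without 1 library the counts were 1 to 2 in Late disease and Recovery, 0 to 2 for Recovery against Early disease and 0 to 1 for Recovery against Late disease. The cause of these moves was not tested. The setting without Control 6, Recovery 3 and Late disease 6 and the one with the TPM share were added after seeing the data. Replicate numbers do not pair the libraries: deviations of 37 same-number pairs correlated at −0.18 to 0.13, and the replicate block left Cybb at 2.40 in Late disease and 2.99 in Recovery.

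Signs turned on values near 0 that passed no test. With limma at TPM + 1 and TPM + 0.1, Cyba was 0.11 in Early disease and 0.13 in Late disease, Ncf1 0.21 in Early disease, 0.0545 and 0.0546 in Recovery and −0.16 in Recovery against Early disease. Ncf4 was then −0.0663 and −0.0667 in Recovery against Late disease and −0.10 against Early disease. With rNLS8 controls Ncf1 was 0.0141 in Early disease and 0.0429 in Recovery, and with WT controls Cyba was 0.00504 in Late disease. With the label code as a term, Ncf1 and Rac2 were 0.11 and −0.0898 in Early disease, and Cyba and Rac2 0.0326 and −0.0153 in Late disease; shared-code controls gave Cyba 0.0382. Without the 3 libraries Ncf1 was 0.0295 in Recovery and Rac2 −0.0271 in Late against Early disease, and the TPM share gave Cyba 0.0916 and 0.17 in Early and Late disease. Without 1 library, Ncf1 ran from −0.0796 to 0.0218 in Recovery and −0.0414 to 0.0697 in Recovery against Early disease, Ncf4 from −0.0186 to 0.16 there, and Rac2 from −0.0247 to 0.20 in Late against Early disease and −0.0821 to 0.0131 between sexes. Cybb rests on as few as 23 counts in a library, which limits the precision of its control level.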
